A study of Mus musculus with 107 samples.

Results

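The 9 genes F3, Procr, Thbd, Tfpi, Plau, Plaur, Plat, Thbs1 and F2r, which start, brake or respond to blood clotting or activate plasminogen, were followed across all treatment groups of a mouse ear study of sulfur mustard, the blistering agent bis-(2-chloroethyl) sulfide. They are 9 of the 18193 genes that the 2 arrays name, and 16 of the 45137 probe sets, a probe set being the group of oligonucleotides that reads 1 transcript. The genes were selected on measured values, namely a lower F3 and a higher Procr signal in mustard ears than in ears given the solvent alone. Differences between these 2 groups are therefore given as a description, with no test. Array A carried 14 of the 16 probe sets, of which 11 passed the minimum mean scaled signal of 100, and both probe sets of array B passed it. All 9 genes kept at least 1 probe set on array A, and the one with the highest mean log2 value stands for its gene below. One further probe set, which names Thbs1 together with another gene, was not used.

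The values come from 64 ears on array A, 43 of them also on array B, each ear biopsied 24 h after exposure. Right ears received 0.08 mg (0.5 µmol) of mustard in 5 µL of methylene chloride, either alone (5 ears) or 15 min after a drug in ethanol. The drugs were dimercaprol, a dithiol chelator (6.25 mg, 50.3 µmol, in 10 µL, 6 ears), indomethacin, a cyclooxygenase inhibitor (1.34 mg, 3.74 µmol, in 20 µL, 6 ears), and octylhomovanillamide, abbreviated OHV in the labels and related to capsaicin (0.6 mg by the treatment label and 0.585 mg, 1.995 µmol, by the protocol, in 30 µL, 5 ears). Methylene chloride alone was put on the left ears of these animals, of which 21 were measured. Further animals, all without mustard, gave 5 naive ears from 3 mice, 3 left ears with ethanol, and right ears with dimercaprol (4), indomethacin (4) or octylhomovanillamide (5) alone, on array A. Strain, sex and age of the mice are not given in the sources used here. Mustard-only ears had no ethanol pretreatment, so that each pretreated group differs from them by a drug together with its ethanol.

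Tissue factor, the product of F3, is the membrane receptor on which factor VII starts clotting, and in skin it is made by keratinocytes and by cells around vessels. Tfpi blocks that start, whereas thrombomodulin (Thbd) and the endothelial protein C receptor (Procr) turn thrombin towards activation of protein C, which slows clotting. Urokinase (Plau), its receptor (Plaur) and tissue-type plasminogen activator (Plat) turn plasminogen into plasmin, which dissolves fibrin. Thrombospondin 1 (Thbs1) is a matrix protein released by platelets and made by many cells, and F2r is a thrombin receptor of the protease-activated receptor family.

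Promoter windows are shown for F3 and F2r, whose signals were lower in mustard ears, and for Procr and Plaur, whose signals were higher, to set genes of both directions side by side. These are 4 of the 5 genes of the set with a RefSeq promoter entry. Tfpi, the fifth, is not printed. Its log2 difference between mustard and methylene chloride ears ran from -0.32 to 0.02 when 1 mustard ear at a time was left out. Each holds the 250 bases before the annotated RefSeq start in build GRCm38.p6, written 5′ to 3′ on the gene's own strand, at chr3:121723287-121723536 (plus strand, F3), chr2:155750967-155751216 (plus, Procr), chr7:24462233-24462482 (plus, Plaur) and chr13:95618467-95618716 (minus, F2r). Capitals mark matches to any of 6 motifs searched on both strands.
F3: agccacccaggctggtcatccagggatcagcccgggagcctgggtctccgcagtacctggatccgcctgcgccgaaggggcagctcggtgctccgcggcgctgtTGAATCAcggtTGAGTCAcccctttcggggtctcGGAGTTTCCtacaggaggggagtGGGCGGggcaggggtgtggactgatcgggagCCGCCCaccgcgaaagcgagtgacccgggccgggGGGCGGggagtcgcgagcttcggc
Procr: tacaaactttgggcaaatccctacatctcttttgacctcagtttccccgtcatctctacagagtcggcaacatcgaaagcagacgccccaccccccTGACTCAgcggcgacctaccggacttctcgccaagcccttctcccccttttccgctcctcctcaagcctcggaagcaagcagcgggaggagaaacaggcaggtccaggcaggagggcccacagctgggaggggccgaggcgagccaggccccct
Plaur: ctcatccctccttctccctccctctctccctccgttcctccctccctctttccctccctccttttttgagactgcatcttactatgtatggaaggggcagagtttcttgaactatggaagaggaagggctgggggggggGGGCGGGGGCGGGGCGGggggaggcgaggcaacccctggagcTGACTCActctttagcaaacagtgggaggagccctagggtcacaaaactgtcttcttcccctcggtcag
F2r: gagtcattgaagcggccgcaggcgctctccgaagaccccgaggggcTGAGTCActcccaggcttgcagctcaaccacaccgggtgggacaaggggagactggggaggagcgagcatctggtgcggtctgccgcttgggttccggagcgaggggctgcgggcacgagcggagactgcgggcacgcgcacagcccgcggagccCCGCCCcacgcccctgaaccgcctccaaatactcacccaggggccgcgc

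The motifs were TGANTCA (AP-1), GGGCGG (the Sp1 GC box), GCGNGGGCG (EGR factors), GGNNTTTCC (a kappaB-like site), TATAAA and TGACGTCA (CRE). Some matches overlap, as the EGR match of Plaur does with GC boxes. TGANTCA was found in all 4 printed windows and in neither Tfpi window. There were 2 matches in F3 (TGAATCA and TGAGTCA, starting 146 and 135 bases before the start) and 1 each in Procr (154), Plaur (69) and F2r (204). Of all 27025 genes with a promoter entry, 7.82% hold this motif in such a window, and 35.4% hold the GC box, which was found in F3, Plaur and F2r and in both Tfpi windows. F3 also held GGNNTTTCC 112 bases before its start (5.62% of genes), Plaur held GCGNGGGCG (5.33% of genes), and 1 Tfpi window held TATAAA on the reverse strand (14.3% of genes), while TGACGTCA (1.77% of genes) matched in none of them. The windows of the genes lower and of those higher in mustard ears thus both held the AP-1 letters. A match describes letters only, not binding. Thbd, Plau, Plat and Thbs1 have no entry there.

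Keratinocyte markers were high in all groups, as the label of ear skin implies: the summed signal of 8 basal genes was at least 41884 in every ear of the mustard series. Single basal markers differed in direction. Of the 8, 2 were higher and 4 lower in mustard than in methylene chloride ears (median log2 difference -0.55), where 42.8% of all array A probe sets were called. After indomethacin 0 were higher and 5 lower (median -0.38), where 35.9% were called. Krt15 averaged 6195 in mustard against 13500.5 in methylene chloride ears, Krt5 15320 against 15874 and Krt14 24398 against 18168. The median basal sum was 66988 in methylene chloride ears, 58762 in mustard, 52685 after dimercaprol, 48634 after indomethacin and 50264 after octylhomovanillamide. That order differs from the order of F3 given below. Bright genes that moved in opposite directions, such as Krt14 and Krt15, enter the sum. Whether the number of basal cells bears on F3 was not tested. The summed signal of 8 of 13 listed neutrophil genes ran from 1334 to 2202 in methylene chloride ears, from 5460 to 40701 in mustard ears, from 1492 to 18296 after dimercaprol, from 10593 to 37670 after indomethacin and from 2522 to 20816 after octylhomovanillamide. Nearly all of the rise in this sum lay in S100a8 (mean 237 in methylene chloride and 14905 in mustard ears) and S100a9 (226 and 13242), which injured keratinocytes also make. Csf3r (86.2 and 299.5), Ngp (171 and 331) and Ltf (178 and 256) also had higher means in mustard ears. Mpo (575 and 408) and Mmp8 (104 and 97.7) had lower means there, and Mmp9 (220.1 and 233) differed little. In all, 5 of these 8 genes were higher and 1 lower in mustard ears, where 42.8% of all array A probe sets were called. After indomethacin 4 were higher and 1 lower, where 35.9% of all were called. Of 9 monocyte and macrophage genes tested, 4 were higher in mustard ears, and 4 higher and 1 lower after indomethacin. These counts stand beside the same shares of 42.8% and 35.9%, and Ccr2 was read on array B. Of 8 wound keratinocyte genes, the keratins and small proline-rich proteins of injured epidermis, 7 could be used, and they summed to 5212 to 13474 in methylene chloride ears and 28826 to 126441 in mustard ears. Sums of 11 of 13 endothelial genes overlapped (1701 to 3671 and 2046 to 2844). Single endothelial genes differed in direction. Mean signals in methylene chloride and mustard ears were, for example, 275 and 408 for Egfl7 and 111 and 179 for Flt1. They were 344 and 244 for Cldn5 and 128 and 92.9 for Tek. None of these markers had a value of 0 in any array. Array brightness differed too, with trimmed mean signals of 66.3 to 137 in mustard ears and 111 to 221 in methylene chloride ears before scaling. The mustard ears of animals 5 and 37 stood apart, with the 2 lowest trimmed means of the mustard series (85.7 and 66.3) and log2 ratios of the 3′ to the 5′ Gapdh probe set, a sign of RNA degradation where high, of 0.63 and 0.77, against at most 0.30 in any other array A ear. Without them the differences between mustard and methylene chloride ears were -1.38 for F3, 1.91 for Procr, 0.94 for Thbd, 0.90 for Plaur, -0.77 for Thbs1 and -0.53 for F2r. The part of cell mixture and of brightness in the results below was not tested beyond the alternatives given, and in whole tissue fewer cells of a type and less RNA per cell cannot be told apart.

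**Figure D1:**
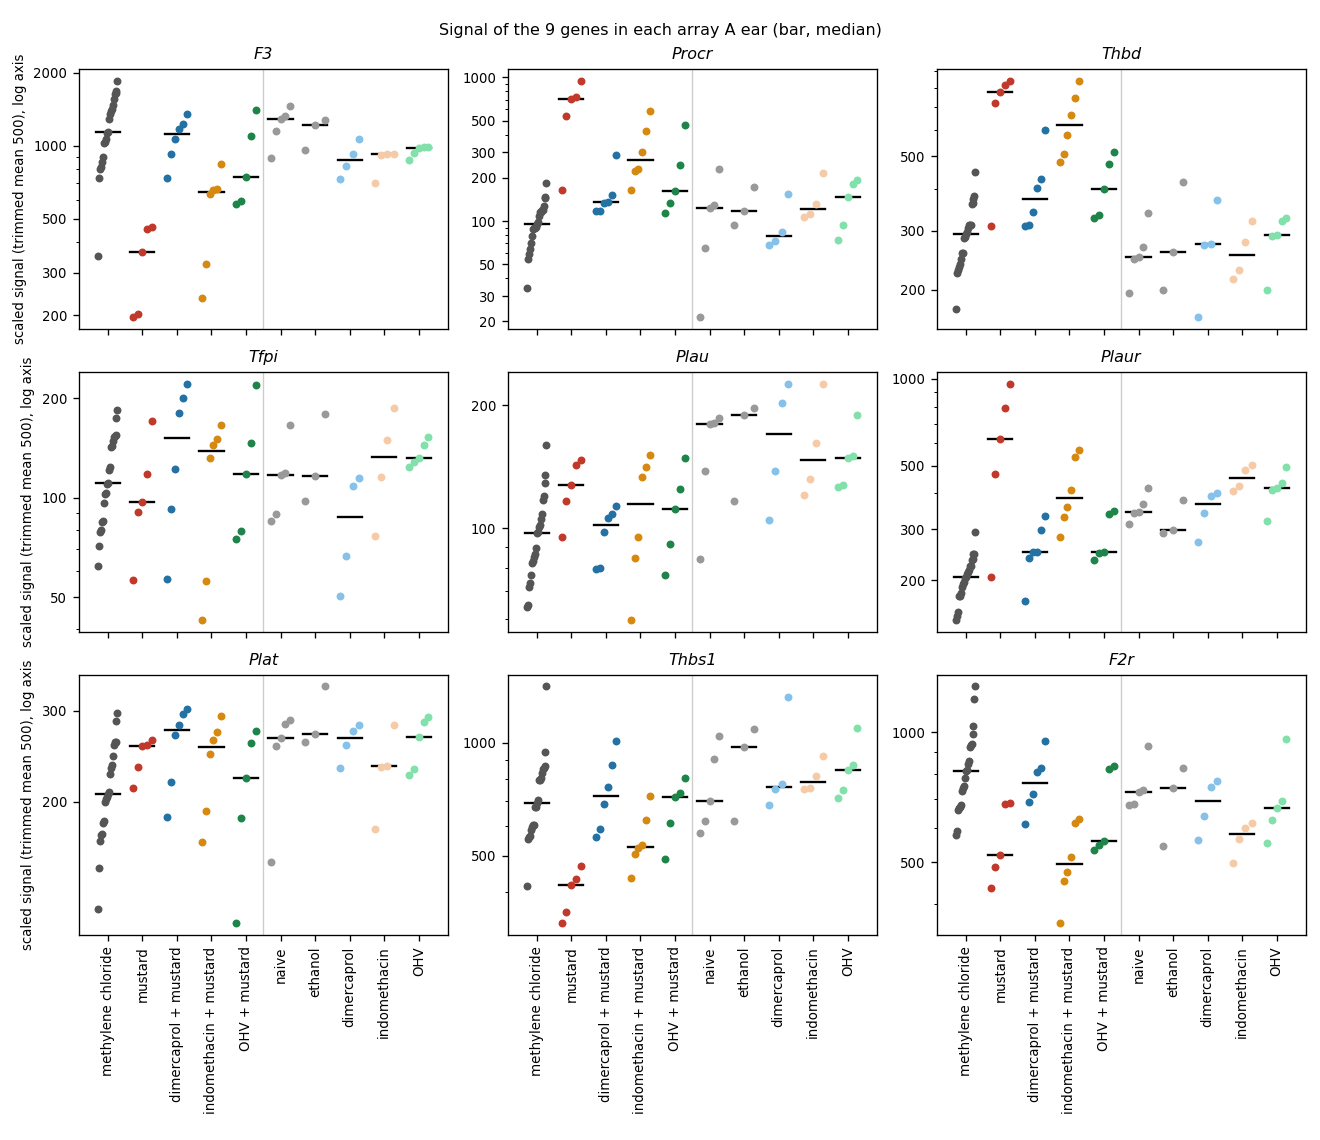
Scaled signal (log axis) of each gene in each array A ear, 1 point per ear and a bar at the median, with the mustard series left of the grey line and the animals without mustard right of it. The mustard median is the lowest of all groups for F3 (366) and the highest for Procr (701), Thbd (779) and Plaur (619).

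F3, the receptor that starts clotting, gave scaled signals of 350.3 to 1860.0 with a median of 1144 in the 21 methylene chloride ears. The 5 mustard ears read 197, 203, 366, 454 and 464. All mustard ears lay below every methylene chloride ear but 1, the left ear of animal 1 at 350.3, and 2 lay below that one as well; the log2 difference was -1.79 ± 0.26 (SE), or 3.46-fold lower. After indomethacin the 6 ears read 236, 326, 631, 660.3, 662 and 842, a log2 difference of -1.12 ± 0.24 from methylene chloride (adjusted p = 0.00025, limma with Benjamini-Hochberg adjustment over 15953 probe sets). After dimercaprol the 6 ears read 738, 922, 1068, 1179.6, 1236 and 1359.9, within the methylene chloride range, and the difference was -0.09 with a 95% interval of -0.57 to 0.40. After octylhomovanillamide the ears spread from 574 to 1411 (574, 590.1, 742, 1097, 1411), with a difference of -0.44 ± 0.26 (adjusted p = 0.45, limma). The order of group medians was thus methylene chloride (1144), dimercaprol (1124), octylhomovanillamide (742), indomethacin (646) and mustard alone (366), and neighbouring groups overlapped.

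Procr, which holds protein C on the endothelial surface, ran the other way. Methylene chloride ears read 34.3 to 183 (median 96.1). Mustard ears read 166, 536, 701, 729 and 949, and 4 of the 5 lay above every methylene chloride ear, a log2 difference of 2.32 ± 0.28, or 5.00-fold. The fifth, the ear of animal 36, also had the lowest sum of the neutrophil list, which S100a8 and S100a9 dominate, of the mustard ears (5460). Indomethacin-pretreated ears read 164, 223, 229, 304, 422 and 587, of which 5 of 6 lay above the methylene chloride range (1.49 ± 0.26, adjusted p = 1.4e-05, limma). The ears of animals 16 and 22, the highest for Procr in that group, were the lowest for F3. Octylhomovanillamide-pretreated ears read 114, 134, 163, 244 and 469.7 (0.95 ± 0.28, adjusted p = 0.054, limma). Dimercaprol-pretreated ears read 117, 118, 133, 137, 152 and 287, a difference of 0.58 with a 95% interval of 0.06 to 1.11 and an adjusted p of 0.24 in limma.

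**Figure D2:**
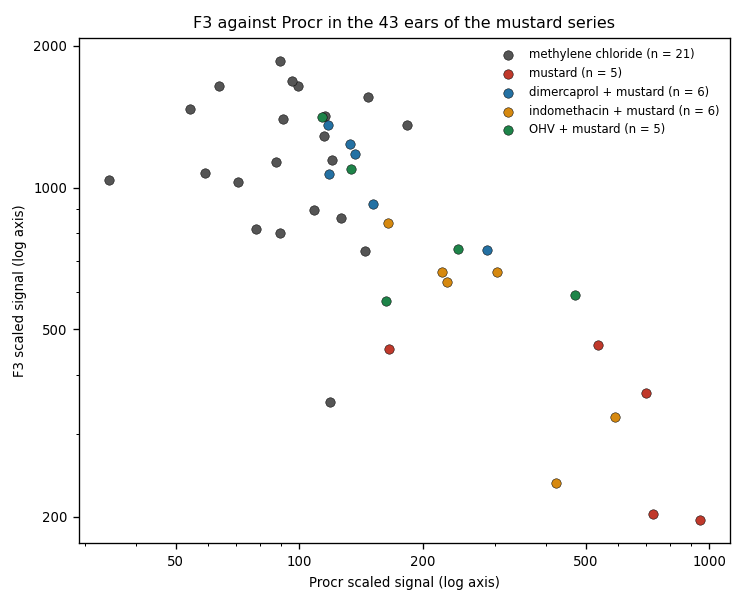
F3 against Procr scaled signal, both on log axes, 1 point per ear of the mustard series, coloured by group. The mustard ears other than that of animal 36 and the indomethacin-pretreated ears of animals 16 and 22 hold the low F3, high Procr corner, and 1 methylene chloride ear (animal 1) has low F3 with Procr in the methylene chloride range.

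Thbd, the endothelial and epidermal thrombin receptor thrombomodulin, followed Procr. It read 175 to 450.2 (median 294) in methylene chloride ears and 309, 722, 779, 815 and 842 in mustard ears (1.14 ± 0.17). The ear of animal 36 was the one mustard ear inside the methylene chloride range. After indomethacin all 6 ears (483, 508, 579.9, 664, 749, 839) lay above all 21 methylene chloride ears (1.07 ± 0.16, adjusted p = 6.1e-07, limma), the only gene of the set with no overlap in that comparison. How many of all probe sets separated in this way was not counted, and 35.9% of them were called there. Dimercaprol (311 to 599, median 372) and octylhomovanillamide (327 to 516, median 401) gave differences of 0.41 ± 0.16 and 0.46 ± 0.17 with adjusted p-values of 0.15 and 0.14 in limma. Tfpi, the inhibitor of the tissue factor complex, showed overlapping groups: 62.1 to 184 in methylene chloride, 56.6 to 171 in mustard, 56.8 to 221 after dimercaprol, 42.7 to 166 after indomethacin and 75.3 to 219 after octylhomovanillamide. Its differences from methylene chloride lay between -0.15 and 0.20. A second Tfpi probe set on array B read 296 to 939 in methylene chloride ears and 304 to 604 in mustard ears, and its lowest adjusted p over the other 9 comparisons was 0.24 (limma). The other Tfpi probe sets of array A did not reach the minimum signal.

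Plaur, the urokinase receptor, read 145 to 295 (median 205) in methylene chloride ears and 205, 469, 619, 795 and 964 in mustard ears (1.35 ± 0.18, or 2.55-fold), the ear of animal 36 again being the lowest. After indomethacin the ears read 282, 331, 358, 412, 536 and 566, 5 of 6 above the methylene chloride range (0.93 ± 0.17, adjusted p = 2.5e-05, limma). After octylhomovanillamide they read 235, 248, 250.1, 340.2 and 349 (0.44 ± 0.18, adjusted p = 0.22) and after dimercaprol 169.8 to 334 with a median of 251 (0.29 ± 0.17, adjusted p = 0.40, both limma). Its ligand Plau and the other activator, Plat, differed less on array A. Plau read 64 to 159.8 in methylene chloride and 95.0 to 147 in mustard ears (0.34 ± 0.16), and its second probe set did not reach the minimum signal. Plat read 124 to 297 and 213 to 263 in the same groups (0.21 ± 0.15). In pretreated ears the Plau and Plat differences from methylene chloride lay between -0.03 and 0.27, with adjusted p-values of 0.31 and above (limma). On array B, Plat read 35.2 to 503 in methylene chloride and 99.1 to 656 in mustard ears, with overlapping groups and a difference of 0.84 ± 0.42, and its lowest adjusted p over the other 9 comparisons was 0.34 (limma).

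Thbs1, the matrix and platelet protein, read 416 to 1412 (median 693) in methylene chloride ears and 332, 354, 417, 433 and 469.6 in mustard ears (-0.81 ± 0.15, or 1.75-fold lower). After indomethacin the ears read 436, 508, 524, 534, 624 and 723 (-0.36 ± 0.14, adjusted p = 0.047, limma). With the animal as a fixed replicate block that difference was -0.15 (adjusted p = 0.63, limma), and 8 of 19 alternatives and leave-outs kept its call, which was lost also without the ear of animal 16, 17, 19 or 22 (adjusted p = 0.095, 0.15, 0.096 and 0.086, limma). A second Thbs1 probe set gave -0.42 ± 0.15 in mustard ears and -0.47 ± 0.14 after indomethacin (adjusted p = 0.0079, limma). F2r, the thrombin receptor, read 579.6 to 1277 (median 814) in methylene chloride ears and 436, 488, 519.9, 681 and 685 in mustard ears (-0.55 ± 0.14). After indomethacin it read 362, 452, 476, 513, 618 and 629, 4 of 6 below all methylene chloride ears (-0.69 ± 0.13, adjusted p = 5.2e-05, limma). With the animal as a fixed block this became -0.36 (adjusted p = 0.15, limma). A second F2r probe set gave larger differences, -1.12 ± 0.19 in mustard and -0.995 ± 0.17 after indomethacin (adjusted p = 1.3e-05, limma). Dimercaprol and octylhomovanillamide left both genes within -0.33 and 0.04 of methylene chloride on the probe sets that stand for them.

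**Figure D3:**
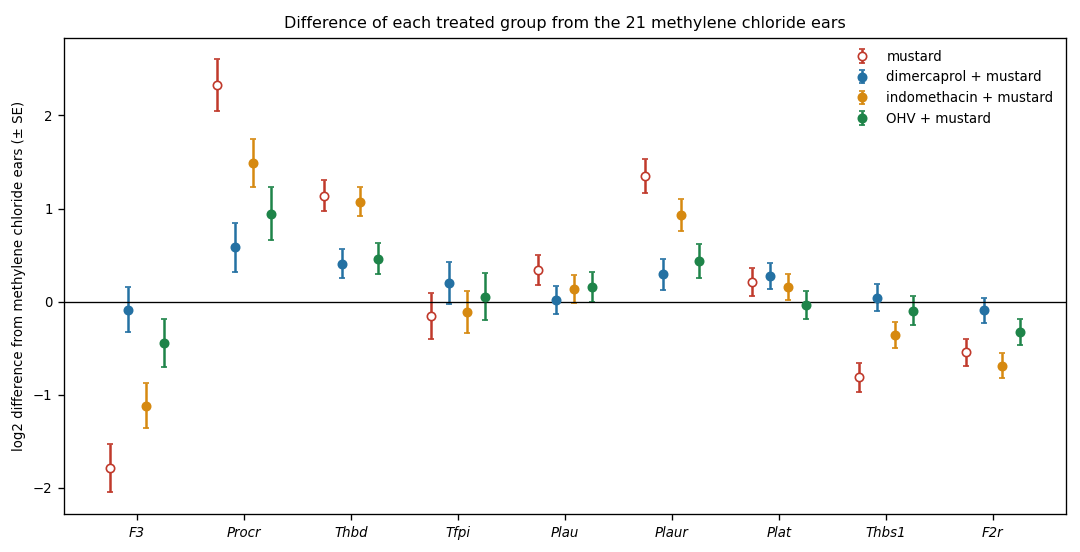
Log2 difference of each group from the 21 methylene chloride ears, with SE, for the 9 genes. Open points are the mustard-only ears, in which the genes were selected. F3 differs by -1.79 and Procr by 2.32 in mustard ears, and the indomethacin-pretreated ears lie on the same side at -1.12 and 1.49.

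Counted over the 9 genes, indomethacin-pretreated ears differed from methylene chloride ears in 6 (Procr, Thbd and Plaur higher, F3, Thbs1 and F2r lower), where 35.9% of all probe sets tested were called. Dimercaprol-pretreated ears differed in 0 of 9 (3.05% of all called), and octylhomovanillamide-pretreated ears in 0 of 9 (2.76% of all), by limma. At an unadjusted p under 0.05 there were 2 genes after dimercaprol and 4 after octylhomovanillamide (limma). Of all 15953 probe sets, 2618 and 2360 were under that value. Procr after octylhomovanillamide crossed the adjusted threshold under 7 of the alternatives run and without the ear of animal 28 (adjusted p = 0.033, limma). The median difference over the 9 genes was 0.20 after dimercaprol, 0.14 after indomethacin and 0.06 after octylhomovanillamide, against -0.01, -0.03 and 0.00 over all probe sets. These 3 comparisons use the same 21 methylene chloride ears as the mustard values that selected the genes. For the mustard-only ears themselves, 42.8% of all probe sets were called, and of the 9 genes none had fully separate groups. Overlap was examined for the 9 genes only. Statements of separate groups, here and elsewhere, therefore have no share over all probe sets beside them.

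Comparisons with mustard-only ears share the ears in which the genes were selected and are no independent evidence of direction. Dimercaprol-pretreated ears differed in 6 of 9 genes (26.8% of all probe sets called): F3 (1.70 ± 0.31) and Thbs1 (0.85 ± 0.19) were higher with no overlap between the groups, F2r was higher (0.45 ± 0.17), and Procr (-1.74 ± 0.34), Thbd (-0.73 ± 0.20) and Plaur (-1.06 ± 0.22) were lower. Octylhomovanillamide-pretreated ears differed in 5 of 9 (17.1% of all), with F3 at 1.35 ± 0.33, Thbs1 at 0.71 ± 0.20, Procr at -1.38 ± 0.36, Thbd at -0.68 ± 0.21 and Plaur at -0.91 ± 0.23. Indomethacin-pretreated ears had 3 of 9 genes, and 3098 of all 15953 probe sets, at an unadjusted p under 0.05 (limma). After adjustment they differed in 0 of 9 (1.8% of all), with F3 at 0.67 (95% interval 0.04 to 1.31) and Procr at -0.83 (-1.52 to -0.15). Without the mustard ear of animal 36 the indomethacin count became 2, with Procr at -1.24 (adjusted p = 0.015) and Plaur at -0.75 (adjusted p = 0.012, both limma). F2r lost its call against mustard without any 1 of the mustard ears of animals 1, 3 and 5 or the dimercaprol ears of animals 6, 10 and 11 (adjusted p between 0.075 and 0.14, limma). Thbd after octylhomovanillamide did so without any 1 of the mustard ears of animals 1, 3, 5 and 37 or the octylhomovanillamide ears of animals 28 and 30 (adjusted p between 0.057 and 0.081, limma). With the animal as a fixed replicate block, 1 gene (Thbd) stayed called for dimercaprol and 0 for octylhomovanillamide. The differences in that fit were 1.51 for F3, -1.86 for Procr and -1.05 for Plaur after dimercaprol, and 0.40 for F3 and -1.44 for Procr after octylhomovanillamide. With array brightness as a covariate neither comparison had a call, and without the mustard ears of animals 5 and 37, dim and high in the Gapdh ratio, the counts were 3 and 0.

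The drugs were then compared with each other in pretreated ears, groups that the selecting contrast does not contain, at doses and volumes that differed between drugs. Dimercaprol against indomethacin gave 4 calls of 9 where 10.5% of all probe sets were called. F3 was higher after dimercaprol (1.03 ± 0.30, adjusted p = 0.022), as was F2r (0.59 ± 0.16, adjusted p = 0.017), while Thbd (-0.66 ± 0.19, adjusted p = 0.022) and Plaur (-0.64 ± 0.21, adjusted p = 0.043) were lower, all by limma. Procr lay at -0.91 ± 0.32 (adjusted p = 0.064, limma), and the groups overlapped for the probe set that stands for each gene. The second F2r probe set did not overlap, at 342 to 563 after dimercaprol and 106 to 276 after indomethacin (1.07 ± 0.22, adjusted p = 0.0016, limma). No gene kept its call with the animal as a fixed block (F3 at 1.81, adjusted p = 0.055; F2r at 0.09, adjusted p = 0.92) or with array brightness as a covariate (F3 at 0.82, adjusted p = 0.092). Leaving out the dimercaprol ear of animal 6, 9 or 10 gave 1, 1 and 2 calls, and leaving out the indomethacin ear of animal 16, 19 or 22 gave 0, 2 and 2. Plaur alone lost its call without animal 11 or 17, and Procr gained one without animal 12 or 18. Octylhomovanillamide against indomethacin gave 0 of 9 (2.07% of all), with Thbd nearest at -0.61 (95% interval -1.02 to -0.20, adjusted p = 0.089, limma). At an unadjusted p under 0.05 there were 4 of the 9 genes and 2893 of all 15953 probe sets (limma). Dimercaprol against octylhomovanillamide gave 0 of 9 (0% of 15953 probe sets, of which 332 had an unadjusted p under 0.05; 0 of the 9 genes did), with F3 at 0.35 (-0.28 to 0.98) and Procr at -0.36 (-1.05 to 0.32).

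In animals without mustard, none of the drugs alone differed from ethanol in any of the 9 genes by limma, where 0% of all probe sets were called for each drug. At an unadjusted p under 0.05 there was 1 gene for dimercaprol, 2 for indomethacin and 1 for octylhomovanillamide. Of all 15953 probe sets, 773, 1117 and 996 were under that threshold, in the same order of drugs. The F3 ears read 959, 1225 and 1284 with ethanol and 704, 917, 929 and 929 with indomethacin, which do not overlap (-0.40 ± 0.15, adjusted p = 0.63, limma). Plaur read 291, 299.8 and 379 with ethanol and 409, 424, 482 and 504 with indomethacin, again without overlap (0.48 ± 0.16, adjusted p = 0.58, limma). With so few ears, groups can separate by chance, and the share of all probe sets that did so was not counted. Procr with indomethacin alone (106, 111, 131, 215) overlapped ethanol (93.7, 118, 172), with a difference of 0.11 and a 95% interval of -0.77 to 0.99. Dimercaprol alone gave F3 ears of 734 to 1073 (-0.37 ± 0.15) and octylhomovanillamide alone of 871 to 994 (-0.26 ± 0.14). Only 3 ethanol ears entered these tests, and p-values throughout measure the spread between ears. They were the left ears of animals 507, 515 and 520, whose right ears received dimercaprol, indomethacin and octylhomovanillamide and were tested as well. This pairing was not used, and ethanol and drug ears also differ in side.

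Methylene chloride ears, the same 21 as in the selecting contrast, were set against naive ears, the ears of an animal averaged. Of the 9 genes 1 was called where 21.5% of all probe sets were: Plaur was lower in methylene chloride ears (-0.73 ± 0.20, adjusted p = 0.0081, limma), at 145 to 295 against 313, 341, 345, 367 and 419 with no overlap. The call was lost on unscaled values (-0.36, adjusted p = 0.25) and without naive animal 502 (adjusted p = 0.0501) or 503 (adjusted p = 0.081, all limma). Without naive animal 501 Plau was called as well (-0.74, adjusted p = 0.030, limma), against -0.44 ± 0.21 with all animals. Plaur also read 271 to 504 in all ethanol and drug-alone ears, whose animals belong to the same numbered series as the naive mice and not to the mustard series. Solvent and animal series therefore cannot be told apart. F3 (-0.12 ± 0.28), Procr (-0.17 ± 0.35) and Thbd (0.15 ± 0.21) lay near 0, with naive Procr ears spread from 21.5 to 228.

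Within single animals, the treated right ear could be set against the methylene chloride left ear in 17 mice. Procr and Thbd were higher in the right ear in 4 of 4 mustard mice, with Procr log2 differences of 0.76 to 4.26 and Thbd differences of 0.77 to 1.79. F3 was lower in 3 of 4; the exception, at 0.39, was animal 1, the mouse with the low left ear. Plaur was higher in 3 of 4 mustard mice (-0.25 to 1.90). After indomethacin F3 was lower in 4 of 4 mice (-2.20 to -1.13) and Procr, Thbd and Plaur were each higher in 4 of 4. After octylhomovanillamide F3 was lower in 5 of 5 (-1.28 to -0.06), and Procr (0.19 to 1.70), Thbd (0.35 to 0.70) and Plaur (0.19 to 0.80) were each higher in 5 of 5. After dimercaprol Thbd was higher in 4 of 4 (0.12 to 0.31), Procr was higher in 3 of 4, Plaur in 2 of 4 (-0.37 to 0.61), and F3 in 3 of 4 (-0.21 to 0.75). These differences are a description, with no test of their own.

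**Figure D4:**
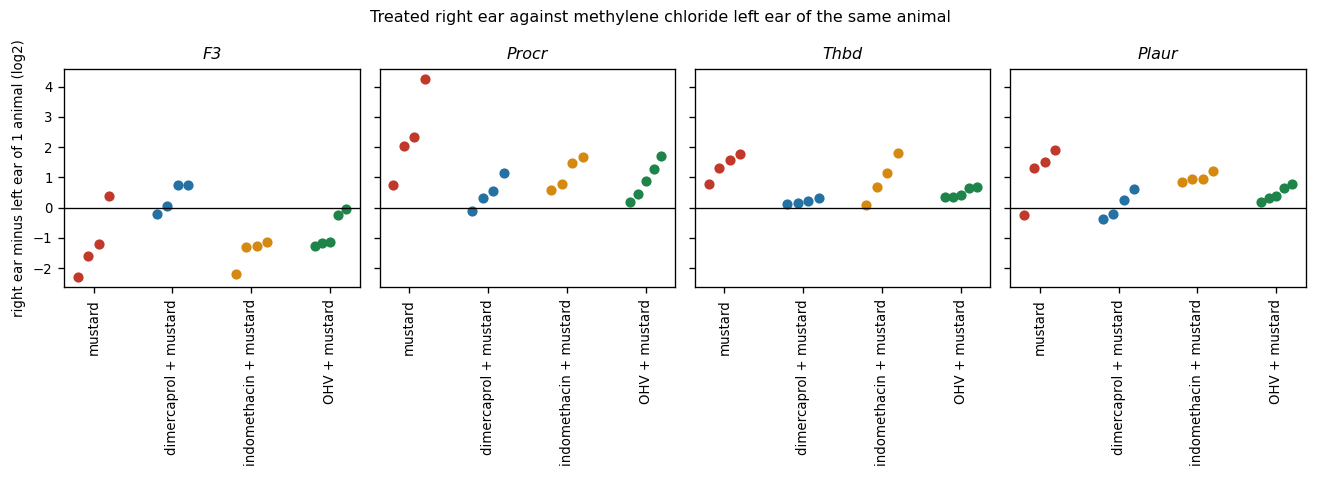
Log2 difference between the treated right ear and the methylene chloride left ear of the same mouse, 1 point per mouse, for F3, Procr, Thbd and Plaur. Procr and Thbd lie above 0 in all 4 mustard mice, and F3 lies below 0 in all indomethacin and octylhomovanillamide mice.

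Variation among the 21 methylene chloride ears, each from its own mouse, was examined over the 36 pairs of genes. F3 and Procr had a Pearson r of -0.11 (permutation p = 0.64, adjusted p = 0.91) and a Spearman rho of -0.11 (adjusted p = 0.86, permutation test). The strongest pair was F3 with F2r, at a Pearson r of -0.60 (permutation p = 0.0036, adjusted p = 0.13) and a Spearman rho of -0.69 (permutation p = 0.00084, adjusted p = 0.030), with r at -0.57 without the 2 ears farthest from the F3 median. This was the only pair of 36 that passed by rank and none passed by Pearson r. On unscaled values the same pair gave r = 0.09, and 15 of the 36 pairs passed by Pearson r. Next came F3 with Plat (r = -0.51, adjusted p = 0.30, permutation test), which dropped to -0.35 without 2 ears.

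The genes whose values over the 64 array A ears were most like F3, among 9610 others, were Slc40a1 (Pearson r = 0.94), the iron exporter ferroportin, Ctnnbip1 (0.91), Gjb5 (0.91), a connexin, Serpina12 (0.90) and Bbox1 (0.90). Gjb5 averaged 1900.4 in methylene chloride ears, 503 in mustard, 1759 after dimercaprol, 892 after indomethacin and 1449.7 after octylhomovanillamide. Most like Procr were Phlda1 (0.90), Dnajb9 (0.84), a chaperone of the endoplasmic reticulum, Selenok (0.83), Cgref1 (0.83) and Gpx1 (0.83), a glutathione peroxidase. Phlda1 averaged 288 in methylene chloride ears, 3095 in mustard, 409 after dimercaprol, 1751 after indomethacin and 901 after octylhomovanillamide. The correlations share the treatment groups and the arrays, and describe likeness only.

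Other genes of clotting and fibrinolysis were read from 4 lists. Of the plasminogen list, 11 of 14 genes could be tested, and after indomethacin 2 were higher and 6 lower than in methylene chloride ears, where 35.9% of all probe sets were called (list median -0.35 against -0.03 for all probe sets). S100a10, the annexin partner that binds plasminogen at the cell surface, rose from a mean of 4141 to 7088 (0.73 ± 0.11, adjusted p = 1.6e-06, limma), and Serpinb2, the plasminogen activator inhibitor of type 2, rose by 0.62 ± 0.15 (adjusted p = 0.0012, limma). Vldlr, which clears protease and inhibitor complexes, fell by 0.91 ± 0.15 (adjusted p = 4.8e-06), and Lrp1, a receptor of the same family, by 0.59 ± 0.15 (adjusted p = 0.0012, both limma). These ears received mustard as well, and mustard-only ears lay on the same side of methylene chloride. Mustard-only means were 7434 for S100a10, 3113 for Serpinb2, 803 for Vldlr and 770 for Lrp1. The means of Serpinb2, Vldlr and Lrp1 were 2354, 1270 and 991 in methylene chloride ears, and 3758, 669.6 and 669 after indomethacin. S100a10 was lower after dimercaprol (-0.60 ± 0.14, adjusted p = 0.0048) and octylhomovanillamide (-0.66 ± 0.15, adjusted p = 0.021) than after indomethacin (limma), and Serpinb2 was lower after octylhomovanillamide than after indomethacin (-0.76 ± 0.20, adjusted p = 0.038, limma). Dimercaprol against indomethacin also called Vldlr (0.67 ± 0.19) and Plgrkt, a plasminogen receptor (0.52 ± 0.15). Anxa2, the partner of S100a10, was the 1 plasminogen gene called against methylene chloride after dimercaprol (-0.23 ± 0.07, adjusted p = 0.043) and after octylhomovanillamide (-0.32 ± 0.07, adjusted p = 0.0055, both limma).

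Of 13 genes listed as anticoagulants, clotting inhibitors or their relatives, 6 could be tested. Protein S (Pros1), the cofactor of activated protein C, was the only one called against methylene chloride in pretreated ears, and it was higher in all 3 groups: 0.53 ± 0.07 after dimercaprol (adjusted p = 1.8e-06), 0.58 ± 0.07 after indomethacin (adjusted p = 1.5e-08) and 0.40 ± 0.08 after octylhomovanillamide (adjusted p = 0.00058, all limma). Its mean signal was 503 in methylene chloride ears, 734, 760.0 and 672 in the pretreated groups and 677 in mustard ears. Gas6, listed only as a relative of protein S, was higher than in mustard ears after dimercaprol (0.72 ± 0.17) and octylhomovanillamide (0.63 ± 0.18). Only 3 of 16 clotting factor and fibrinogen genes reached the minimum signal; most of these proteins come from liver. F13a1, the fibrin cross-linking factor of macrophages and platelets, fell after indomethacin by 0.72 ± 0.18 (adjusted p = 0.0018, limma). Its mean was 1362 in methylene chloride ears, 996 in mustard-only ears and 819 after indomethacin. Of 15 receptor, platelet and thrombospondin partner genes, 9 could be tested, and the thrombospondin receptors Cd36 (-0.67 ± 0.16) and Cd47 (-0.19 ± 0.07) were lower after indomethacin. Cd36 averaged 2693 in methylene chloride ears, 1760 in mustard-only ears and 1652 after indomethacin. The Cd47 means in these groups were 1618, 1284 and 1416. Against naive ears, methylene chloride ears had lower Gp5 (-0.77 ± 0.15), Itga2b (-0.55 ± 0.14) and F2rl2 (-0.69 ± 0.21) in that list, lower F8 (-0.72 ± 0.19) and Serpinf2 (-0.95 ± 0.25), and higher Anxa5 (0.72 ± 0.25). In that comparison 21.5% of all array A probe sets were called, 1181 higher and 2251 lower. Solvent and animal series cannot be told apart for these genes either. Gp5, for example, averaged 166 in methylene chloride and 236 in mustard ears, but 293 in naive and 273 in ethanol ears. No list gene was called for any drug alone against ethanol, where no probe set was.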

How the data were processed

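Single ear biopsies gave total RNA, and cRNA made from it was read on 2 Affymetrix mouse arrays. The authors deposited linear intensity values, 1 per probe set, made with MAS5 per the submitters' processing notes; version and settings are not given in the sources used here. To bring arrays to one brightness (they differed up to 4.03-fold on array A), the mean after trimming 2% from both ends was set to 500, and log2(signal + 16) was used, which understates changes of low signals. A mean of 100 or more after scaling was required, which left 15953 probe sets on array A and 17287 on array B. Groups were compared with limma 3.58.1 in R 4.3.3 (lmFit, eBayes with trend), all groups of a series sharing 1 variance estimate, with Benjamini-Hochberg adjustment over all kept probe sets of an array and a threshold of 0.05. Naive ears of an animal were averaged. The scripts were tested on simulated data. Gene pairs were tested with 100000 permutations, two-sided. Precision is limited by the number of ears.

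The genes, gene lists and tests were chosen with earlier results of these data known. All probe sets of the 9 genes are named. Of each other list, the rule was to name up to 3 genes per comparison with the smallest adjusted p, and genes like F3 and Procr are the 5 with the highest r. For indomethacin against methylene chloride the plasminogen list exceeds that rule, with S100a10, Vldlr, Lrp1 and Serpinb2. Alternatives are under the closing section. Left and right ears of 17 mice are paired by the animal number in the labels; deviations from group means correlated at a mean of 0.16 (-0.09 to 0.44) within mice and -0.01 between mice. No 2 arrays held identical values. Groups are single ears of separate mice, except naive ears.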

Additional observations from a re-analysis of the deposited data

Results flagged for a closer look

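In all, 4 single ears stood far from the others of their group, out of 63 groups of 4 to 6 ears checked, where chance gives about 1 in 20. The mustard ear of animal 36 had a Thbd signal of 309.5, with the next ear at 722. Its Procr (166) and Plaur (205) signals were also the lowest of the mustard ears, and its sum over the neutrophil list, which S100a8 and S100a9 dominate and injured keratinocytes can also raise, was 5460 against 31231 to 40701 in the others. The dimercaprol-pretreated ear of animal 12 had a Procr signal of 286.6, with the next ear at 152, and the same sum was 18296, the highest of that group. It was also the lowest of its group for F3 (738) and the highest for Thbd (599) and Plaur (334). In animals without mustard, the indomethacin ear of animal 512 had an F3 signal of 704.2 with the others at 917 to 929, and the dimercaprol ear of animal 506 had a Thbs1 signal of 1324.6 with the next at 775.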

How the results depend on the processing

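F3, Procr, Thbd and Plaur kept their direction and call in indomethacin-pretreated against methylene chloride ears under every alternative and leave-out run, 18 for Procr and 19 for each of the other genes, with F3 between -1.48 and -0.90 and Procr between 1.13 and 1.65. On unscaled values the counts of called genes became 1 for dimercaprol and 1 for octylhomovanillamide against methylene chloride, 2 for indomethacin against mustard, 2 for dimercaprol against indomethacin and 0 for methylene chloride against naive, 15 pairs of genes passed, and Thbd turned to 0.14 for dimercaprol and 0.039 for octylhomovanillamide against mustard (adjusted p = 0.55 and 0.88, limma), where Plaur also lost both calls (-0.17 and -0.18) and calls were gained by Tfpi (0.90 and 0.63), by Plat for dimercaprol (0.80) and by F2r for octylhomovanillamide (0.88). Octylhomovanillamide against methylene chloride had 1 call (Procr) with a floor of 16, the animal as a random replicate block, the Gapdh 3′ to 5′ ratio or array brightness as a covariate, the mean over probe sets, or without mustard ears 5 and 37. With the animal as a fixed replicate block the counts were 1 and 0 for dimercaprol and octylhomovanillamide against mustard and 0 for dimercaprol against indomethacin, and F3 in mustard minus methylene chloride was -1.18; the block moved no other count by over 1.5 times, and for drugs alone it could not be fitted, as too few mice gave both ears. With array brightness as a covariate the last 3 counts were 0, 0 and 0, with the Gapdh ratio octylhomovanillamide against mustard had 0, and without mustard ears 5 and 37 dimercaprol and octylhomovanillamide against mustard had 3 and 0. Leaving out 1 ear at a time gave 0 to 5 calls for dimercaprol against indomethacin, 0 to 2 for indomethacin against mustard and for methylene chloride against naive, 0 to 1 for octylhomovanillamide against methylene chloride, 4 to 6 for the other comparisons with calls, and 0 for the rest; the naive leave-outs and the regression of pairs on brightness were added after the data were seen. Where no value shows it, the cause was not tested. Procr has no value at a minimum signal of 300, and low signals (Plau, Tfpi, Procr near 100) carry more noise.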
